A study of Mus musculus with 44 samples.

Results

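The genes described here code for splicing factors and were chosen by name: every mouse gene whose symbol begins with Srsf and a digit, with Hnrnp, Snrp, Sf3a or Sf3b, or with Prpf, and which has a probe set carrying its symbol alone. The rule found 54 of the 12393 genes measured: 9 SR proteins, 18 hnRNPs, 5 Sm proteins, 3 proteins specific to 1 kind of snRNP, 9 subunits of SF3A and SF3B, and 10 PRPF factors. Each gene was represented by its probe set with the highest mean, out of 138 probe sets, and 53 of the 54 passed the filter on low values. Snrpn, which codes for the Sm protein of neurons, did not: its log2 level was 4.64 in the spleen, against 3.85 to 4.52 in the lymphomas of set 1 and 4.32 to 4.85 in those of set 2. For another 5 genes (Hnrnpa1l2-ps2, Hnrnpa3, Snrpa, Snrpd1 and Snrpd2) all probe sets carried several symbols, and these genes were not analysed here.

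Total RNA had been hybridised to Affymetrix mouse expression arrays, 1 array per sample, for 1 spleen and 43 lymphomas. Both kinds of sample were labelled with the genotype Eµ-myc, a transgene in which the immunoglobulin heavy chain enhancer drives Myc in B cells, so neither group is free of the transgene. The labels do not say that the spleen was free of disease, that each lymphoma came from a separate mouse, or what the ages were, and p-values therefore measure only the spread between these samples. Lymphoma had been frozen as tissue or as cell pellets, and the labels do not give the route of each sample. The arrays cannot separate RNA of the transgene from that of the endogenous Myc gene.

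The deposited values fell into sets by the number in the sample title. The column medians ran from 6.22 to 6.46 for the 36 lymphomas with the lower numbers (set 1), and from 6.86 to 7.02 for the spleen and the 7 lymphomas with the higher numbers (set 2). Values were therefore compared within a set, or with the set as a term in the fit, and lymphomas are named 1 to 43 in the order of their records. The 11 measured pan-B cell markers, such as Cd79a and Pax5, averaged 9.23 in the spleen, against 9.40 to 11.07 in the lymphomas of set 2 and 7.46 to 10.60 in those of set 1. In bulk tissue, fewer cells of a type and less RNA per cell cannot be told apart.

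Introns are removed by the spliceosome, which is assembled on each transcript from small nuclear ribonucleoproteins (snRNPs), each made of a short RNA, a shared ring of Sm proteins and proteins of its own. SF3A and SF3B belong to the U2 snRNP and hold the branch site, PRPF factors build and remodel the U4/U6.U5 tri-snRNP and the catalytic core, and SR proteins and hnRNPs bind the transcript and favour or oppose the use of nearby splice sites. Myc is known to raise genes of snRNP assembly in Eµ-myc lymphomas, and Srsf1, Hnrnpa1 and Hnrnpa2b1 have been described as Myc targets in cultured cells.

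Splicing factor genes varied little between lymphomas. Their median SD over the 43 lymphomas, after centring on the set mean, was 0.24 on the log2 scale, against 0.338 over all 8721 genes that passed the filter, and 47 of the 53 lay below that median. The splicing factor genes were also brighter, with a median set 1 mean of 10.90 against 7.87 over all genes. SDs were not compared at matched levels. The lowest SDs were those of Snrpe (0.109), Hnrnpf (0.109), Hnrnpab (0.131) and Sf3b1 (0.137). Snrpe, a member of the Sm ring, lay at 12.41 to 12.86 (median 12.63) in the 36 lymphomas of set 1 and 12.96 to 13.24 (median 13.12) in the 7 of set 2. Sf3b1, the largest SF3B subunit, lay at 10.89 to 11.48 (median 11.22) in the 36 lymphomas of set 1 and 11.84 to 12.24 (median 11.98) in the 7 of set 2. Both genes thus spanned less than 1 log2 unit within each set.

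Hnrnpll stood apart from the other members, with an SD of 1.10, and was the 1 member of 53 (1.89%) with an SD of 1 or more, against 608 of 8721 genes (6.97%). It codes for an hnRNP known for directing alternative splicing of the receptor phosphatase CD45 in T cells and for acting in plasma cells, and it lies on chr17:80029487-80062268 in GRCm38.p6. Its level was 10.77 in the spleen, 5.13 to 9.06 (median 6.04) in the 36 lymphomas of set 1 and 6.26 to 9.13 (median 6.54) in the 7 of set 2. The next highest SDs were 0.40 for Prpf3, 0.39 for Sf3b6, which contacts the branch site in the SF3B complex, 0.38 for Hnrnph3, 0.38 for Prpf4b, a protein kinase, and 0.35 for Prpf19, a ubiquitin ligase of the spliceosome.

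Averaged over the 53 genes, the centred level was -0.32 in the spleen, lower than in any of the 43 lymphomas, of which lymphomas 30 (-0.30) and 13 (-0.29) were lowest. Lymphoma 13 held the lowest centred value among lymphomas of 13 members, and lymphoma 30 that of 7. Lymphoma 13 was also the one with the highest macrophage and stromal scores, the stromal score lying 4.86 above the set mean, and lymphoma 30 had the lowest Myc (-1.31 relative to the set mean).

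**Figure D1:**
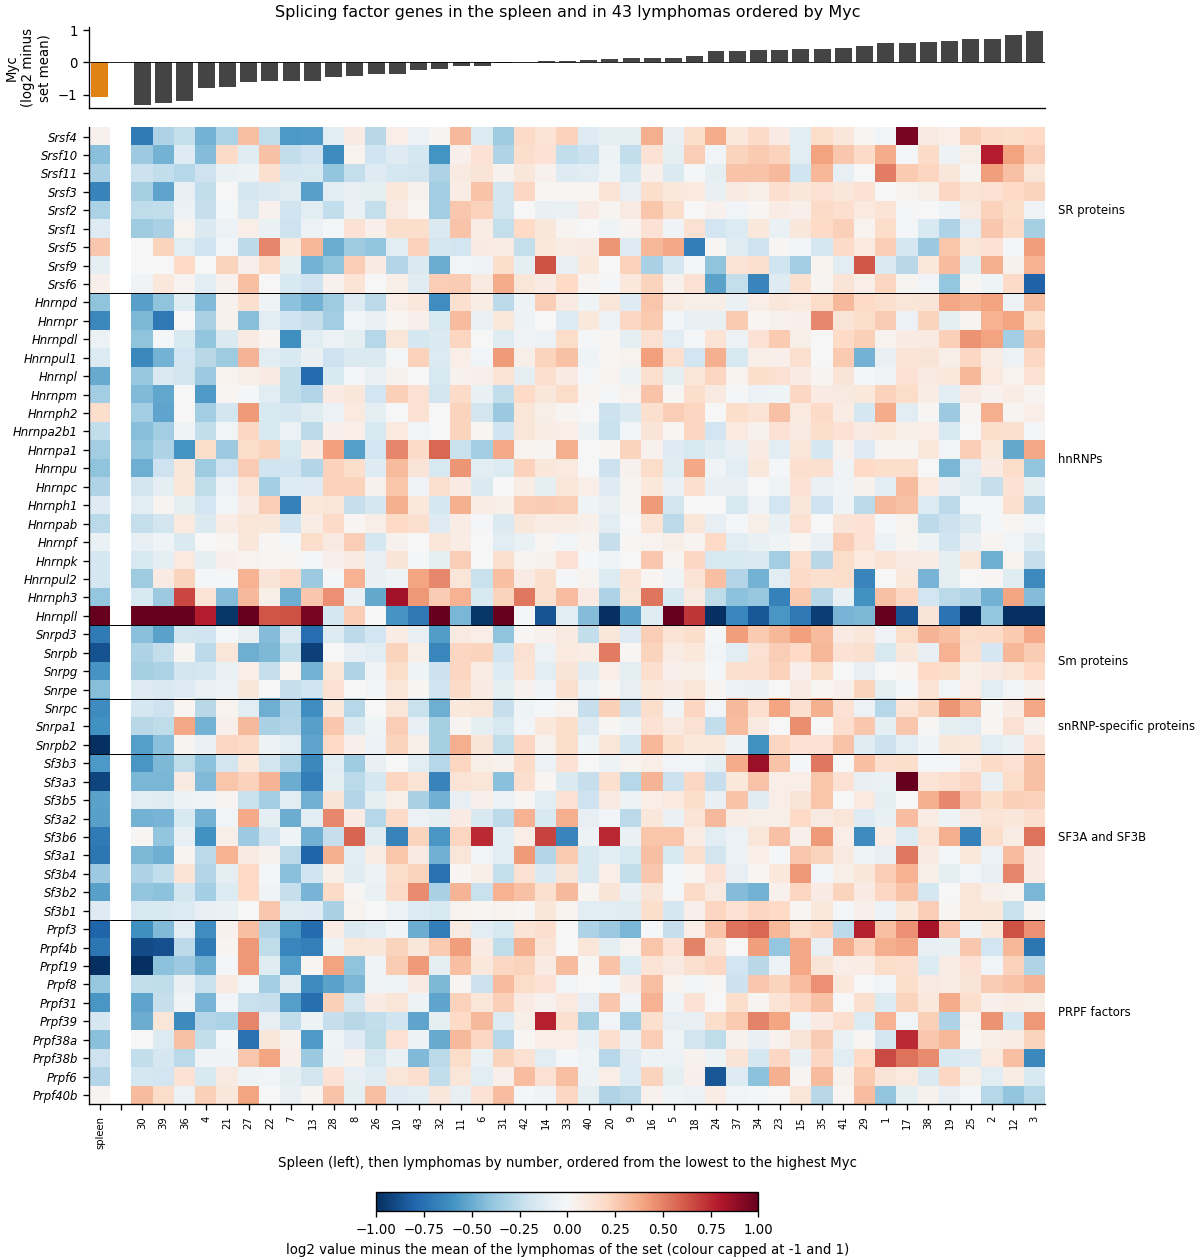
Centred log2 levels of 53 splicing factor genes (rows, by family) in the spleen (left) and in 43 lymphomas ordered by Myc, with centred Myc as bars above. Most genes are lower in the spleen and in the lymphomas with the least Myc, Hnrnpll runs the other way, and its colours pass the cap in many samples.

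The first comparison asked which splicing factor genes followed Myc among the lymphomas. Myc was 10.09 in the spleen, 9.15 to 11.44 (10.46 ± 0.57, SD, n = 36) in set 1 and 9.90 to 11.78 (11.16 ± 0.62, SD, n = 7) in set 2. Each gene was regressed on centred Myc over the 43 lymphomas with limma, and a slope is the change in a gene's log2 level per log2 unit of Myc. Of the 53 genes, 30 had a positive slope past an adjusted p of 0.05, 2 had a negative slope and 21 did not pass. Over all 8721 genes, 26.4% were called positive and 16.9% negative. The median slope was 0.16 over the splicing factor genes, 45 of which had slopes above 0, and 0.03 over all genes.

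Among the SR proteins, 5 of 9 were called positive. Srsf3, the smallest SR protein, which also acts in mRNA export and lies on chr17:29032660-29043372, was at 11.59 in the spleen, 11.13 to 11.96 (median 11.70) in the 36 lymphomas of set 1 and 11.73 to 12.47 (median 12.32) in the 7 of set 2. Its slope was 0.24 ± 0.04 (SE, adjusted p = 4.2e-06), and its lowest values in the 2 sets were those of lymphomas 13 and 39. Srsf4 had a slope of 0.34 ± 0.06 (SE, adjusted p = 4e-05), Srsf11 of 0.25 ± 0.05 (SE, adjusted p = 3.1e-05), Srsf10 of 0.31 ± 0.06 (SE, adjusted p = 0.00019) and Srsf2 of 0.15 ± 0.04 (SE, adjusted p = 0.00063). Srsf1, the founding member of the family, was at 11.84 to 12.47 (median 12.22) in the 36 lymphomas of set 1 and 12.22 to 12.78 (median 12.54) in the 7 of set 2. Its slope of 0.07 ± 0.05 (SE, adjusted p = 0.25) did not pass through the probe set with the highest mean, while some dimmer ones were called positive. The slopes of Srsf5 (0.05 ± 0.07), Srsf9 (0.05 ± 0.07) and Srsf6 (-0.09 ± 0.06) did not pass either, so by the brightest probe sets the family was divided.

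Of the 18 hnRNPs, 8 were called positive, 1 negative and 9 not called. Hnrnpd, which codes for the AU-rich element binding protein AUF1, lay at 10.83 to 11.85 (median 11.52) in the 36 lymphomas of set 1 and 11.50 to 12.23 (median 11.86) in the 7 of set 2, and its slope was 0.31 ± 0.05 (SE, adjusted p = 8.4e-06). Hnrnpr lay at 10.55 to 11.47 (median 10.98) in the 36 lymphomas of set 1 and 10.88 to 11.85 (median 11.69) in the 7 of set 2, with a slope of 0.29 ± 0.05 (SE, adjusted p = 7.9e-06). Relative to the set mean, Hnrnpr was lowest in lymphoma 39, which had low Myc, and highest in lymphoma 35. The others called positive were Hnrnpl, Hnrnpdl, Hnrnpm, Hnrnpa2b1, Hnrnpul1 and Hnrnph2, with slopes between 0.14 and 0.22. For Hnrnpa2b1, whose product binds exonic silencers, the slope was 0.14 ± 0.04 (SE, adjusted p = 0.0018), while that of Hnrnpa1, its close relative, was 0.11 ± 0.07 (SE, adjusted p = 0.23). The call of Hnrnpa2b1 rested on its brightest probe set. Its dimmer probe sets 1433829_a_at, 1434047_x_at and 1433830_at did not pass, at -0.08 ± 0.07, 0.05 ± 0.06 and 0.06 ± 0.07 (SE). Hnrnpa1 has many processed copies in the genome, and whether its probe sets match them as well was not examined. Hnrnpc, Hnrnpf, Hnrnpab and Hnrnpk had slopes between -0.02 and 0.02 through their brightest probe sets, with adjusted p from 0.67 to 0.96. Dimmer probe sets of Hnrnpc, Hnrnpf and Hnrnpab were called positive, among them 1418693_at of Hnrnpc at 0.28 ± 0.07 (SE, adjusted p = 0.0022) and 1448144_at of Hnrnpab at 0.23 ± 0.07 (SE, adjusted p = 0.0055).

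Hnrnpll was called negative, with a slope of -0.99 ± 0.25 (SE, adjusted p = 0.0014). The sign was the same in each set, at -0.93 ± 0.28 over the 36 lymphomas of set 1 and -1.25 ± 0.39 over the 7 of set 2 (SE). Hnrnpll exceeded the set mean by more than 1 log2 unit in 8 lymphomas and lay below it in 28. Of those 8, Myc was above its set mean in 2, lymphomas 1 and 5, whose Hnrnpll levels of 9.06 and 8.95 were the highest of set 1. The gene therefore did not follow Myc in every lymphoma.

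The Sm proteins had 3 of 4 members called positive. Snrpd3, which codes for SmD3 and lies on chr10:75518042-75535440, was at 11.88 in the spleen, 11.09 to 12.26 (median 11.92) in the 36 lymphomas of set 1 and 12.05 to 13.01 (median 12.60) in the 7 of set 2. Its slope of 0.36 ± 0.05 (SE, adjusted p = 1.2e-06) had the smallest p-value of the 53 genes, and corresponds to 1.29-fold per doubling of the Myc signal. Snrpb, which codes for SmB, had a slope of 0.24 ± 0.07 (SE, adjusted p = 0.0032) and Snrpg, for SmG, of 0.19 ± 0.04 (SE, adjusted p = 7.4e-05). For Snrpe the slope of 0.06 ± 0.03 (SE, adjusted p = 0.076) did not pass. Of the proteins specific to 1 snRNP, Snrpc of the U1 snRNP had a slope of 0.24 ± 0.06 (SE, adjusted p = 0.00079), and Snrpa1 and Snrpb2 of the U2 snRNP had slopes of 0.12 ± 0.06 and 0.10 ± 0.06 that did not pass.

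Of the 9 SF3A and SF3B subunits, all had slopes above 0 and 7 were called positive. Sf3b3, a scaffold subunit, lay at 10.07 to 11.58 (median 10.70) in the 36 lymphomas of set 1 and 10.86 to 11.68 (median 11.31) in the 7 of set 2, with a slope of 0.34 ± 0.06 (SE, adjusted p = 5.8e-06). Sf3b1, the subunit that clamps the branch site, had a shallow slope of 0.10 ± 0.04 (SE, adjusted p = 0.018). The PRPF factors had 6 of 10 called positive and 1 negative. Prpf3, a protein of the U4/U6 snRNP on chr3:95830124-95855885, lay at 8.36 in the spleen, 7.77 to 9.30 (median 8.56) in the 36 lymphomas of set 1 and 8.67 to 9.99 (median 8.91) in the 7 of set 2, and had the steepest positive slope of the 53 genes, 0.45 ± 0.08 (SE, adjusted p = 3.8e-05). Prpf8, the largest protein of the catalytic core, had a slope of 0.26 ± 0.05 (SE, adjusted p = 0.00012). Prpf40b, named after the U1-associated Prp40 of yeast, was called negative at -0.17 ± 0.05 (SE, adjusted p = 0.006), over levels of 5.87 to 6.67 (median 6.25) in the 36 lymphomas of set 1 and 6.56 to 6.86 (median 6.66) in the 7 of set 2, close to the column medians.

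**Figure D2:**
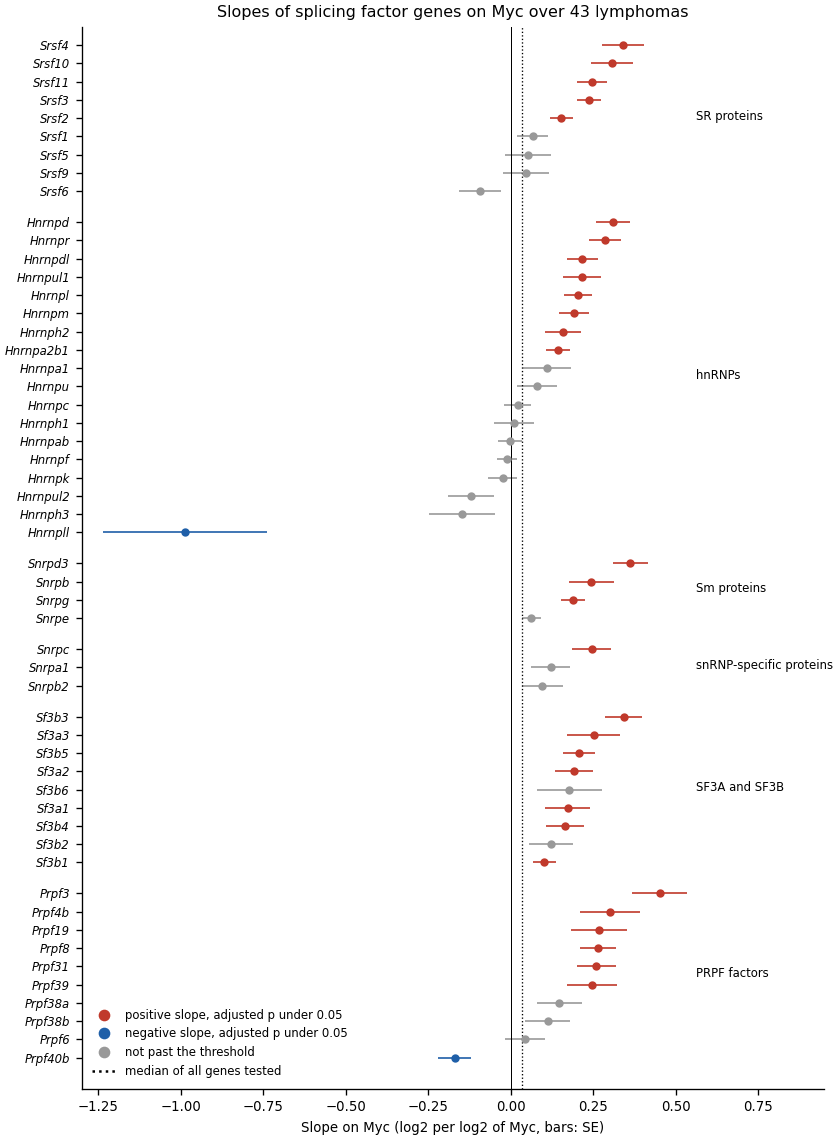
Slope on Myc (log2 per log2 unit of Myc, bars show the SE) of 53 splicing factor genes over 43 lymphomas, by family, coloured by the call. Of the 53 slopes, 30 are called positive and 2 negative, Hnrnpll lies far below 0, and the dotted line is the median of all 8721 genes.

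**Figure D3:**
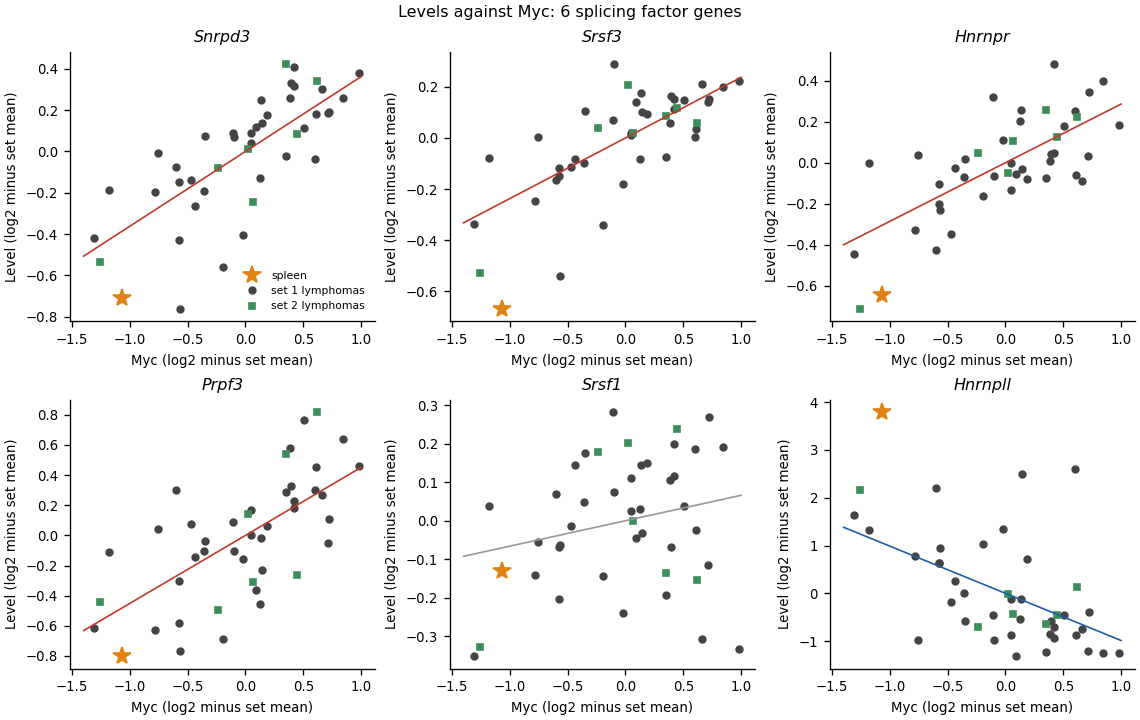
Centred log2 levels of 6 splicing factor genes against centred Myc in the spleen (star) and in the lymphomas of set 1 (circles) and set 2 (squares), with the fitted slope over the lymphomas. Snrpd3, Srsf3, Hnrnpr and Prpf3 are higher where Myc is higher, and Srsf1 shows no called slope through its brightest probe set. Hnrnpll is lower where Myc is higher, with the spleen above all lymphomas.

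Of the 53 slopes, 45 lay above 0 in set 1 alone, with a median of 0.15, and 47 in set 2 alone, with a median of 0.17. In set 1 alone, 27 were called positive and 2 negative, against 22.1% and 13.9% of all genes. With the 7 lymphomas of set 2 alone limma called 0 in either direction, and 14 positive and 1 negative slope had an unadjusted p under 0.05. Without lymphomas 30 and 39, the 2 farthest from the median Myc, 19 genes were called positive, against 17.8% of all genes.

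Markers of other cells moved with Myc as well. Of the T cell markers, 11 of 13 were called negative on Myc, and so were 11 of 17 macrophage markers and 7 of 11 plasma cell markers. The averaged T cell markers ran from 5.55 to 8.84 in set 1 and from 6.51 to 8.91 in set 2, and the macrophage markers from 5.34 to 9.52 and from 6.19 to 9.45. Adjusted for T cell and macrophage scores in the fit, 4 splicing factor genes were called positive and 0 negative by limma, against 5.19% and 3.47% of all genes, and 12 and 1 had an unadjusted p under 0.05. The 4 genes were Snrpd3 at 0.20 ± 0.06 (SE, adjusted p = 0.033), Srsf11 at 0.19 ± 0.05 (SE, adjusted p = 0.019), Hnrnpr at 0.23 ± 0.06 (SE, adjusted p = 0.021) and Sf3b3 at 0.23 ± 0.07 (SE, adjusted p = 0.04). In this adjusted fit 39 of the 53 splicing factor genes had slopes above 0, with a median of 0.07, against 0.02 over all genes. Of the 30 genes called positive without these scores, 28 had slopes above 0, with a median of 0.11. Those 30 had been picked by their slopes in the same lymphomas, a choice that favours slopes above 0. The slope of Hnrnpll was -0.36 ± 0.32 (SE). With the plasma cell score instead, which was added after seeing the data, 7 were called positive (Hnrnpr, Prpf3, Prpf8, Sf3b3, Snrpd3, Srsf11 and Srsf3) and 0 negative, against 5.74% and 4.45% of all genes, with 13 and 1 at an unadjusted p under 0.05. The part of other cells in the slopes was not tested beyond these fits.

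The other genes of the pathway, a list of 96 measured splicing genes outside the naming rule, was tested in the same fit. Of the 95 kept, 60 were called positive on Myc and 4 negative, beside the 26.4% and 16.9% of all genes, with a median slope of 0.18. The 8 with the largest statistic were all positive. Gemin8 and Clns1a, which code for proteins of snRNP assembly, had slopes of 0.67 ± 0.09 and 0.20 ± 0.03 (SE). Prmt5, the methyltransferase that prepares Sm proteins for assembly, had a slope of 0.49 ± 0.08. Ptbp1, which represses exons with polypyrimidine tracts, had 0.23 ± 0.03, and the slopes of Srrm1, Cdc5l, Casc3 and Pdcd7 lay between 0.26 and 0.38.

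Promoter sequences, taken from RefSeq with GRCm38.p6 coordinates and spanning 250 bases before to 50 after an annotated start, were available for 49 of the 54 genes. Some genes had several starts, each with its own promoter. They were searched for CACGTG, the E-box letters that Myc with Max is known to bind, which read the same on both strands. The letters stood in the promoter of 7 of the 49 genes (14.3%), against 2187 of 27025 genes in the table (8.09%), which had fewer promoters per gene on average. Counted by promoter, 8 of 68 (11.8%) held them, against 7.15% of all 32851 promoters of that length. The 7 were 5 of the 27 genes called positive that had a promoter (Hnrnpd, Hnrnph2, Hnrnpm, Prpf3 and Prpf39), Prpf40b among those called negative, and Hnrnpf, which was not called. A match describes the letters only. The promoters of Hnrnpd and Prpf3 are shown because both genes rose with Myc and hold the E-box (in capitals), that of Prpf40b because it holds the E-box and had a negative slope, and that of Snrpd3 because the gene with the smallest p-value holds none in this window.
Hnrnpd (GRCm38.p6 chr5:99978889-99979188, minus strand): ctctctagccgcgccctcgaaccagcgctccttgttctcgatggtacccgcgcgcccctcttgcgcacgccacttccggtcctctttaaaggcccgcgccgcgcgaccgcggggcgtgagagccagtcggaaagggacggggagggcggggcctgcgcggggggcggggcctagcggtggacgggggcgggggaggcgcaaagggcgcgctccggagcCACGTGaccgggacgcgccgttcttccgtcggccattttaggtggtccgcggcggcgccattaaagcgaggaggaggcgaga
Prpf3 (GRCm38.p6 chr3:95855704-95856003, minus strand): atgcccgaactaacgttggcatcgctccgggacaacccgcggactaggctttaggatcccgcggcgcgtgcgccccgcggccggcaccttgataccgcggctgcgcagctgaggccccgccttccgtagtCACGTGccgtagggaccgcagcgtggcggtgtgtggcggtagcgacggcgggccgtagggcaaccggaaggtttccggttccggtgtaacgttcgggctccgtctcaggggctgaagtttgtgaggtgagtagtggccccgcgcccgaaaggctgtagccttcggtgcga
Prpf40b (GRCm38.p6 chr15:99294991-99295290, plus strand): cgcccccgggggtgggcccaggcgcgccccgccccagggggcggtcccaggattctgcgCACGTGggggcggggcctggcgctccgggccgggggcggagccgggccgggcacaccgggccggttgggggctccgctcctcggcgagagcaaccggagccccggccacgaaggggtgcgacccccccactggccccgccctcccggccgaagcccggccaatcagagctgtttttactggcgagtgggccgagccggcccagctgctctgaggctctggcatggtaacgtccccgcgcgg
Snrpd3 (GRCm38.p6 chr10:75517792-75518091, plus strand): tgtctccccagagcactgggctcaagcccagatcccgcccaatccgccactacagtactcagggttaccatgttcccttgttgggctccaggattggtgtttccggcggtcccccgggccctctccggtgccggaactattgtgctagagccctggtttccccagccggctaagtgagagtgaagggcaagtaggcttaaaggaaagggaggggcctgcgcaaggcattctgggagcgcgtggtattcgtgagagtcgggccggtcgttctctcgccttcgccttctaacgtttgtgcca
Counted from the start used for the promoter shown, the E-box began 32 bases before it in Hnrnpd, 120 in Prpf3 and 191 in Prpf40b. Each of these starts lies inside the annotated span of its gene, not at the outer end. The spans are chr5:99955935-99979130 for Hnrnpd, chr3:95830124-95855885 for Prpf3 and chr15:99295076-99317018 for Prpf40b.

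A second question was whether the genes followed cycling rather than Myc alone, measured by the mean of 24 G2/M genes such as Mki67 and Ccnb2. Of the 53 splicing factor genes, 37 had a positive slope on the G2/M score and 1, Hnrnpll, a negative one, against 26.6% and 15.9% of all genes. Here a slope is the change in log2 level per log2 unit of the score, and its median was 0.37 over the splicing factor genes and 0.08 over all genes. Srsf3 had a slope of 0.51 ± 0.06 (SE, adjusted p = 3.8e-08), Hnrnpd of 0.69 ± 0.08 (SE, adjusted p = 3.1e-08), Hnrnpm of 0.51 ± 0.07 (SE, adjusted p = 3.2e-07) and Snrpb of 0.71 ± 0.10 (SE, adjusted p = 3.7e-07). All 4 Sm proteins, all 3 snRNP-specific proteins and 8 of 9 SF3 subunits were called positive. Srsf1, not called on Myc through its brightest probe set, had a slope of 0.33 ± 0.07 (SE, adjusted p = 0.00042) on this score.

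The overlap of the calls was 27 genes, of the 30 called positive on Myc and the 37 called positive on the G2/M score. Both predictors were measured on the same lymphomas, and the G2/M score itself had a slope of 0.26 on Myc. The share of all genes called positive on both was not counted, so the overlap cannot be read as particular to splicing factor genes. With the G2/M score as a covariate, 16 genes were called positive on Myc and 0 negative, against 15.1% and 11.4% of all genes, with 22 and 5 at an unadjusted p under 0.05. Among the 16 were Snrpd3 at 0.25 ± 0.05 (SE, adjusted p = 0.0003) and Srsf3 at 0.14 ± 0.03 (SE, adjusted p = 0.00078). With Myc as a covariate, 26 were called positive on the G2/M score and 1 negative, against 14.5% and 7.5% of all genes, among them Srsf3 at 0.38 ± 0.06 (SE, adjusted p = 8.8e-06). Of the macrophage markers, 16 of 17 were called negative on the G2/M score, and once T cell and macrophage scores were added as covariates 15 splicing factor genes were called positive and 0 negative, against 4.95% and 1.7% of all genes (26 and 1 at an unadjusted p under 0.05).

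Along the B cell stage score, the mean of mature minus that of precursor B cell markers, 11 splicing factor genes were called negative and 0 positive by limma, against 13.9% and 12.1% of all genes, with 23 negative and 1 positive at an unadjusted p under 0.05. The 11 genes called were lower in lymphomas with a higher score, that is, with more mature relative to precursor marker expression. The precursor score varied more between lymphomas (SD 1.23) than the mature score (SD 0.56), and the 2 were not fitted apart. Slopes here are per log2 unit of the score, with a median of -0.04 over the splicing factor genes and -0.01 over all genes. The slopes of the 4 with the largest statistic were -0.11 ± 0.03 (SE, adjusted p = 0.0032) for Prpf19, -0.06 ± 0.02 (SE, adjusted p = 0.0095) for Hnrnph1, -0.06 ± 0.02 (SE, adjusted p = 0.011) for Hnrnpm and -0.07 ± 0.02 (SE, adjusted p = 0.019) for Hnrnpd. The count rested on the lymphomas used: without lymphomas 9, 13, 32 and 40, whose scores stood apart, 25 were called negative and 1 positive, against 18.8% and 15.5% of all genes. Adjusted for T cell and macrophage scores it was 2 negative and 0 positive, against 7.67% and 5.57%, with 4 and 5 at an unadjusted p under 0.05.

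Along the plasma cell score, the mean of 11 markers such as Xbp1 and Prdm1, 32 splicing factor genes were called negative and 2 positive, against 27.2% and 16.3% of all genes. The 2 were Hnrnpll, at 0.89 ± 0.17 (SE, adjusted p = 6.7e-05), and Prpf40b, at 0.10 ± 0.04 (SE, adjusted p = 0.033). Of the 8 lymphomas with Hnrnpll more than 1 above the set mean, the plasma cell score was above the set mean in 7, the T cell score in 6 and the macrophage score in 6. In each set the median of all lymphomas lay below the set mean on these scores. In set 1 the medians were 7.19 against a mean of 7.32, 6.74 against 6.82 and 6.22 against 6.52. The negative slopes with the smallest p-values were those of Hnrnpd (-0.24 ± 0.04), Srsf3 (-0.17 ± 0.03), Prpf19 (-0.30 ± 0.05) and Snrpg (-0.15 ± 0.03), with adjusted p from 5.7e-06 to 1.5e-05. T cell and macrophage markers rose along this score, 12 of 13 and 10 of 17 of them. With their scores as covariates, 1 gene, Prpf19, was called negative, at -0.33 ± 0.08 (SE, adjusted p = 0.012), and 0 were called positive, against 1.23% and 2% of all genes, with 8 and 1 at an unadjusted p under 0.05. Prpf19 was lowest, by 1.52 below the set mean, in lymphoma 30, which had the highest plasma cell score of the 43 lymphomas.

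The spleen was compared with the lymphomas in a fit with the set as a term. There was 1 spleen, so it was assumed to vary as the lymphomas do. Of the 53 splicing factor genes, 1 was higher in the spleen and 6 were lower past an adjusted p of 0.05, against 7.6% and 5.79% of all genes. The median difference, spleen minus lymphomas, was -0.38 over the splicing factor genes and -0.16 over all genes. Set beside the 7 lymphomas of set 2, the spleen lay above all of them in 3 genes (Hnrnpll, Srsf5 and Hnrnph2), below all of them in 31 and inside their range in 19, whereas over all genes it lay above in 19.6% and below in 31%. The number lower moved when single lymphomas of either set were left out, and when the spleen was fitted against the 7 lymphomas of set 2 alone. The median difference over the splicing factor genes was -0.44 without lymphoma 39 and -0.34 without lymphoma 42. Over all genes it was -0.16 and -0.15 in the same fits. When arrays were first scaled to equal medians, the median difference moved to -0.30 over all genes and to -0.51 over the splicing factor genes.

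Hnrnpll was 10.77 in the spleen, against 6.26 to 9.13 (median 6.54) in the 7 lymphomas of set 2, and the fitted difference was 3.80 ± 1.14 (SE, adjusted p = 0.02). The spleen exceeded even lymphoma 39, the highest of the 7. Snrpb2 was 9.16 in the spleen, against 9.92 to 10.62 (median 10.29) in the 7 lymphomas of set 2, and the fitted difference was -1.18 ± 0.25 (SE, adjusted p = 0.00077). Snrpb2 codes for the U2 protein B'', and each of the 7 lymphomas lay above the spleen, which had 0.442 times the level fitted for lymphomas. Among the Sm proteins, 3 of 4 were lower. Snrpb was 10.64 in the spleen, against 11.27 to 11.66 (median 11.57) in the 7 lymphomas of set 2, and the fitted difference was -0.87 ± 0.30 (SE, adjusted p = 0.046). Snrpg was 12.43 in the spleen, against 12.71 to 13.22 (median 13.02) in the 7 lymphomas of set 2, and the fitted difference was -0.59 ± 0.18 (SE, adjusted p = 0.024). Snrpe was 12.68 in the spleen, against 12.96 to 13.24 (median 13.12) in the 7 lymphomas of set 2, and the fitted difference was -0.42 ± 0.12 (SE, adjusted p = 0.013). In each of these 3 Sm genes, named because they passed the fit, the spleen lay below all 7 lymphomas of set 2. It did so in 31% of all genes. Snrpd3, at 11.88 in the spleen, against 12.05 to 13.01 in the 7 lymphomas, was below all of them too, but its difference of -0.71 ± 0.30 (SE) did not pass, with an adjusted p of 0.11. Srsf3 was 11.59 in the spleen, against 11.73 to 12.47 (median 12.32) in the 7 lymphomas of set 2, and the fitted difference was -0.67 ± 0.20 (SE, adjusted p = 0.023). Prpf19 was 11.16 in the spleen, against 11.79 to 12.63 (median 12.22) in the 7 lymphomas of set 2, and the fitted difference was -1.04 ± 0.37 (SE, adjusted p = 0.04998). Prpf19 lay at the edge of the threshold and Srsf3 just under lymphoma 39.

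**Figure D4:**
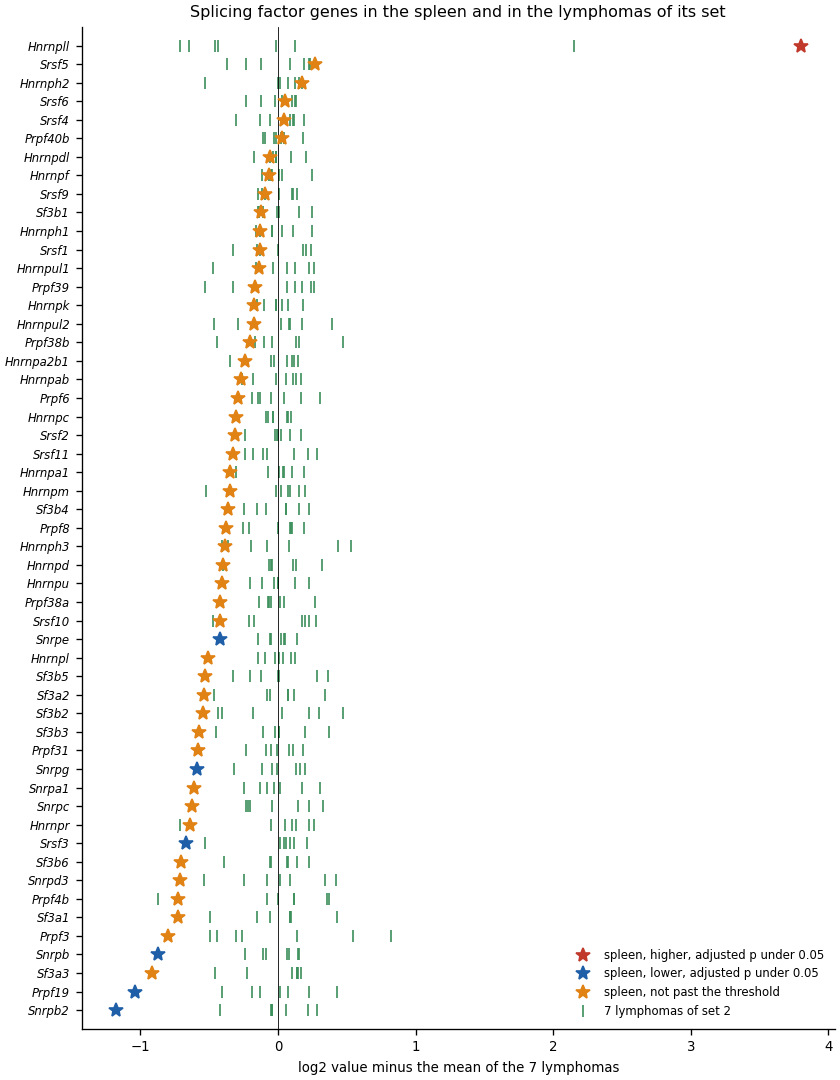
Centred log2 levels of 53 splicing factor genes in the spleen (stars) and in the 7 lymphomas of set 2 (ticks), ordered by the spleen's value. The spleen lies below all 7 lymphomas in 31 genes and above them in 3, of which Hnrnpll is the one past the threshold.

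Cell composition differed between the samples as well. The spleen's mean over erythroid markers was 11.72, against 5.72 to 5.97 in the lymphomas of set 2, with 11 of 12 markers called higher, and its mean over neutrophil markers was 12.49, against 5.69 to 9.54, with 9 of 11 called higher. The mean over plasma cell markers was 10.54 in the spleen, against 7.45 to 10.02, with 3 of 11 called higher. The stromal mean was 8.88 in the spleen, against 5.70 to 6.52, with 5 of 14 markers called higher, and the macrophage mean lay just above the highest of the 7 lymphomas (range 6.19 to 9.45), with 4 of 17 called higher. T cell markers averaged 6.54 in the spleen, against 6.51 to 8.91, inside their range. The mean over the G2/M genes was 10.67 in the spleen, against 9.95 to 10.75, inside their range. The part of other cells in the splicing factor differences was not tested. Over the 95 other splicing genes kept, the median difference, spleen minus lymphomas, was -0.48, against -0.16 over all genes. The difference lay below 0 in 84 of the 95 and above it in 11, and Prmt5 was lower in the spleen by 1.29.

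The last comparison asked whether the probe sets of 1 gene followed Myc alike. Of the probe sets of splicing factor genes that passed the filter, 74 were called positive on Myc and 3 negative, against 28.1% and 15.3% of all 13742 probe sets. In 28 of the 35 genes with several such probe sets all slopes had the same sign, and no gene had probe sets called in both directions. Both probe sets of Hnrnpll were called negative, at -0.99 ± 0.25 and -1.12 ± 0.32 (SE).

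The slope of the difference between each further probe set and the one with the highest mean was then tested. Of 82 pairs, 12 were called positive and 5 negative, in 12 genes, against 13.6% and 6.26% of 4940 pairs over all genes, or 19.9% in either direction. Srsf1 showed the largest statistic: probe set 1428099_a_at had a slope of 0.07 ± 0.05, 1428100_at had 0.52 ± 0.10, and the slope of their difference was 0.46 ± 0.07 (SE, adjusted p = 2.2e-05). Of its 6 probe sets, all had slopes above 0. The brightest, 1428099_a_at and 1434972_x_at, were not called. The dimmer 1453722_s_at, 1430982_at, 1428100_at and 1452430_s_at were called positive by limma, with adjusted p from 4.4e-05 to 0.048. Whether Srsf1 counts as following Myc thus depended on the probe set. In Snrpd3 the difference was -0.29 ± 0.06 (SE, adjusted p = 0.00089) for 1422885_at and 0.33 ± 0.09 (SE, adjusted p = 0.0074) for 1449629_s_at, whose median levels in set 1 of 6.12 and 6.83 lay near the column medians. Hnrnpu, which codes for a scaffold protein of the nucleus and was not called through its brightest probe set, had a slope of 0.36 ± 0.06 on 1450849_at, a difference of 0.28 ± 0.07 (SE, adjusted p = 0.0029). The slopes of 1423051_at, 1434391_at and 1434390_at of Hnrnpu were called positive by limma too, with adjusted p from 0.00018 to 0.021. The differences were 0.44 ± 0.12 (SE, adjusted p = 0.0059) for Hnrnpdl, -0.16 ± 0.04 (SE, adjusted p = 0.0067) for Sf3b4 and 0.23 ± 0.06 (SE, adjusted p = 0.0068) for Hnrnpab. Probe sets marked _s_at or _x_at can match several transcripts, and their positions on the transcripts were not analysed here. Once T cell and macrophage scores were added as covariates, limma called 0 of the 82 pairs in either direction, with 5 positive and 3 negative at an unadjusted p under 0.05.

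**Figure D5:**
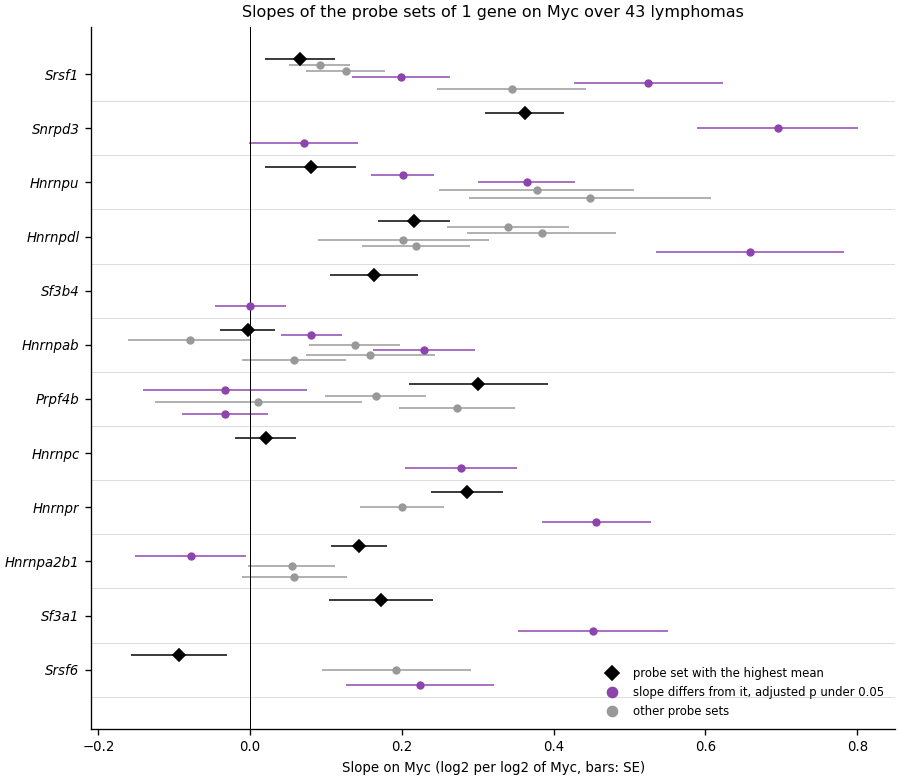
Slope on Myc (log2 per log2 unit of Myc, bars show the SE) of each probe set of the 12 splicing factor genes with a called difference, over 43 lymphomas. Diamonds mark the probe set with the highest mean, and coloured points those whose slope differs from it; in Srsf1 the slopes run from 0.07 to 0.52.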

How the data were processed

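The authors deposited log2 values for each probe set. RMA and the affy package are named, without versions, per the submitters' processing notes, and neither the annotation used upstream nor a separate run for each set is given in the sources used here. There were 22690 probe sets, including 64 controls, and a platform annotation gave 20380 of them 1 symbol. Arrays have no read depth, so their number limits the precision. The 8721 genes kept had a value over the median of the set on at least 1 array.

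Slopes and spleen differences were fitted over all kept genes by limma 3.58.1 (R 4.3.3, eBayes, intensity trend, set as a term, two-sided, adjusted by Benjamini-Hochberg over all genes, threshold 0.05). Scores were means of marker lists, centred within sets. The 11 lists were plasma cell, mature B, precursor B, pan-B, T cell, macrophage, neutrophil, erythroid and stromal markers, G2/M genes and other splicing genes. Alternatives changed the filter, probe set rule, scaling, test settings, set term, covariates and lymphomas used. The genes, lists and tests were chosen with earlier results of these data known.

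A fixed rule named genes: the 10 most positive and 5 most negative called Myc slopes, 6 called spleen differences each way, the 6 highest and 4 lowest SDs, 4 per score, 6 with called probe set differences, 8 other splicing genes, and Srsf1, Srsf3, Hnrnpa1, Hnrnpa2b1, Hnrnpll, Sf3b1, Prpf8, Snrpd3 and Snrpn. Further genes named were chosen after their values were seen.

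Tested on simulated data, the Myc fit recovered 31.5% of 200 slopes of 0.5 residual SD per SD of Myc and 99.5% of those of 1, over 8721 genes. The spleen fit recovered 1% of differences of 0.5 log2 units, 26.5% of those of 1 and 78.5% of those of 2. The probe set fit recovered 99.5% of slopes of 1 residual SD, over 4940 pairs. The simulated noise was independent between genes, and at most 200 genes or pairs were changed in each run. In the real data 43.3% of genes were called on Myc, so these rates need not hold there.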

Additional observations from a re-analysis of the deposited data

How the results depend on the processing

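Across the planned and added alternatives, 123 counts stayed within 1.5 times their main value and 49 did not. Among named genes 544 values kept direction and side of the threshold, 113 lost the call, 4 gained one and 5 changed sign. Slopes on Myc held best with the 3' minus 5' RNA quality difference, robust or untrended eBayes or other filters, which all called the same 32 genes. Without the set term 1 was negative on Myc. In set 2 alone 0 were positive and 0 negative on Myc (14 and 1 at an unadjusted p under 0.05), 0 and 0 on the G2/M score (17 and 1), 0 negative on the stage score (4), and 1 positive and 3 negative on the plasma cell score; 7 lymphomas entered those fits. Adjusted for T cell and macrophage scores, 4 were positive and 0 negative on Myc, 15 and 0 on the G2/M score, 2 negative on the stage score, and 0 positive and 1 negative on the plasma cell score. On Myc, 16 were positive and 0 negative with the G2/M score, 7 and 0 with the plasma cell score, and 1 and 0 with all 3 other-cell scores (9 and 2 unadjusted), the last 2 added after seeing the data. Without the 2 farthest lymphomas 19 were positive on Myc, 2 negative on the G2/M score and 1 positive on each of the stage and plasma cell scores. The Srsf1 slope on Myc, not called, was -0.0049 without the 2 farthest lymphomas, -0.027 with the G2/M score, -0.016 with the plasma cell score and -0.033 with all 3 other-cell scores.

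On the G2/M score the negative count was 2 with the mean of all probe sets, 2 without lymphomas 9, 13, 32 and 40, and 0 with no set term (0 unadjusted). On the stage score, 1 was positive with the mean of all probe sets, with the 3' minus 5' difference, with ranks and without lymphomas 9, 13, 32 and 40, which gave 25 negative; ranks gave 19 and no set term 0 (8 unadjusted). On the plasma cell score, 1 was positive with equal medians, quantile normalization, ranks or set 1 alone, and 2 were negative with no set term. In the spleen, the number lower was 11 with the mean of all probe sets, 19 with array weights, 1 with no set term, where Snrpb was 0.015 higher, and 2 against set 2 alone. Of the probe set pairs, 1 was negative in set 1 alone, 0 and 0 were called with the T cell and macrophage scores, and 7 positive and 2 negative without the 2 farthest lymphomas. The cause of these changes was not tested. The counts in this section stand without the shares of all genes called at the same settings, which can move too. They are therefore not read as particular to splicing factor genes. Leaving out 1 lymphoma in turn, added after seeing the data, gave 28 to 32 positive and 2 to 3 negative on Myc, and 1 to 1 higher and 4 to 10 lower in the spleen, the 10 without lymphoma 39. No paired analysis was possible because there was 1 spleen and replicate numbers only name the samples. Signal limits Prpf40b, Snrpn and low Hnrnpll values, which lay near or below the column medians.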
